A study of Rattus norvegicus with 18 samples.

Results

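The 10 genes described here are targets of the hypoxia response and of glucose transport: Slc2a1, Hk2, Pgk1, Ldha, Vegfa, Adm, Egln3, Bnip3, P4ha1 and Angptl4. They were chosen by name, as every probe set of the array whose only gene symbol is one of these, which gave 13 probe sets of the 20826 that carry 1 symbol, or 10 genes of 14217. Expression was measured in rats on 18 arrays, 9 of subcutaneous abdominal fat and 9 of hypothalamus, with 3 biological replicate RNA samples in each of 3 treatment groups per tissue. The Pair-Fed group received the amount of food that the operated animals ate. RYGB-Success and RYGB-Fail rats both underwent gastric bypass of the Roux-en-Y type (RYGB), in which a small stomach pouch is joined to a lower stretch of intestine, and were losing weight in the former group and regaining it in the latter. The labels used here give no strain, age, sex or time after the operation, and do not say whether a fat and a hypothalamus sample with the same number came from 1 animal.

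Cells sense oxygen through prolyl hydroxylases, which mark the alpha subunits of the hypoxia-inducible factors (HIF) for destruction while oxygen is present. When oxygen falls, the alpha subunits persist, pair with Arnt or Arnt2 and bind short DNA elements with the core ACGTG or GCGTG, which turns on genes of glucose uptake, glycolysis, vessel growth and mitochondrial turnover. Several of these genes also answer to other signals: Slc2a1 is the main glucose transporter of the blood-brain barrier and of many dividing cells, and Angptl4 is induced by fasting and by fatty acids through PPAR receptors in adipocytes.

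The upstream sequences of the members differed in how often they held that core. A window was present for 9 genes in the RefSeq promoter table of the rat assembly GRCr8, with a pair of windows for Vegfa and none for Pgk1, so 10 windows of the 250 bases before the annotated start were searched on both strands for ACGTG and GCGTG, which read CACGT and CACGC where the match lies on the other strand. Matches that share bases, as in CACGTG, were counted as 1 stretch. At least 1 stretch was present in 5 of the 10 windows, against 36.7% of 33469 windows of the same length, and 3 or more in 3 of the 10, against 4.30% of those windows. The 5 windows with a match are printed to show the number and spacing of the cores, in lower case with the cores in capitals, each 5′ to 3′ on the strand of the gene. They lie at chr5:138002272-138002521 on the plus strand for Slc2a1 with 4 stretches, chr1:106507842-106508091 on the plus strand for Ldha with 3, chr1:203154963-203155212 on the minus strand for Bnip3 with 3, chr20:27844796-27845045 on the plus strand for P4ha1 with 2, and chr7:15258682-15258931 on the minus strand for Angptl4 with 1.
Slc2a1: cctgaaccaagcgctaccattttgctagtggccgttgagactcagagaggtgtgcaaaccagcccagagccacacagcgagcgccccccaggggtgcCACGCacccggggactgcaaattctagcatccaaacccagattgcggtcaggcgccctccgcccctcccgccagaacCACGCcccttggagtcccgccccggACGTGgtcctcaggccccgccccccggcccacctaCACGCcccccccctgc
Ldha: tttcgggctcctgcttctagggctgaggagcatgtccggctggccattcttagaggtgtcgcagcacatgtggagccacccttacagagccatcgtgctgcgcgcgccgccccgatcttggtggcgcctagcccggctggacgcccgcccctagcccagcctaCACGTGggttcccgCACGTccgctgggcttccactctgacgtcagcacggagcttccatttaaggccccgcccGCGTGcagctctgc
Bnip3: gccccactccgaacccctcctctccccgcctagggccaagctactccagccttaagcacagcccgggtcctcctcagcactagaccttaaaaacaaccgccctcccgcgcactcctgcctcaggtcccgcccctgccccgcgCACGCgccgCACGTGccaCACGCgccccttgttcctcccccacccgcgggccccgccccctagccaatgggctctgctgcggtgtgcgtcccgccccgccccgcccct
P4ha1: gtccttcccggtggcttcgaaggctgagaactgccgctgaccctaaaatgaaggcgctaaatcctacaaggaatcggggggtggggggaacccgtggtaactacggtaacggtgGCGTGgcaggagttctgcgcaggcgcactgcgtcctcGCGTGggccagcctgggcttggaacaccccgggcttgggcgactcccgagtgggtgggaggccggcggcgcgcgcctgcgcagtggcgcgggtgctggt
Angptl4: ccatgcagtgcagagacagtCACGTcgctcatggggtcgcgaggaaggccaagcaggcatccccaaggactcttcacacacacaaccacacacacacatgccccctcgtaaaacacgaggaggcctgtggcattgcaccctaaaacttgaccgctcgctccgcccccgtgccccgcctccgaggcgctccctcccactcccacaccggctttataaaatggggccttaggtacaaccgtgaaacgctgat
In Slc2a1 the cores were spread apart, whereas in Bnip3 they lay within a few bases of each other and in Angptl4 the only one lay near the far end. No core was found in these windows of Vegfa, Egln3, Adm and Hk2, which says only that the letters are absent there. A match is a description of the sequence, and binding was not measured.

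Values are the deposited MAS5 signals, linear and already scaled to a common trimmed mean, which was 500.1 to 500.2 on the 18 arrays. Differences are differences of mean log2 signal ± standard error from limma, fitted over all probe sets in the upper 60% by mean signal in a tissue (18625 probe sets, from a lowest mean signal of 88.9 in fat and 52.7 in hypothalamus), and a difference was called at a Benjamini-Hochberg adjusted p under 0.05. With 3 arrays a group the number of arrays limits the precision. Each p-value sets a difference of means against the spread between these samples, as limma estimates it. Adipoq, the adipocyte hormone adiponectin, had signals of 17271 to 60117 on fat arrays and 86.0 to 410 on hypothalamus arrays. Snap25, a protein of nerve terminals, had 13279 to 25290 in hypothalamus and 52.0 to 1089 in fat. The third RYGB-Fail fat array stood apart, with a median signal of 287.7 where the other fat arrays had 98.2 to 200.0, a correlation with the remaining fat arrays whose median was 0.73 where theirs was 0.794 to 0.848, and a beta-actin 3′ to 5′ ratio of 2.46 where they had 12.03 to 24.26. In hypothalamus the lowest ratios of beta-actin, 6.65, and of GAPDH, 1.58, were those of the third RYGB-Success array. The highest beta-actin ratio of the 18 arrays, 178.52, was that of the second Pair-Fed hypothalamus array, where the next highest was 48.46. In pieces of whole tissue, fewer cells of a type and less RNA per cell cannot be told apart.

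Of the 13 member probe sets, 10 passed the filter in fat, covering 9 genes, and 9 passed in hypothalamus, covering 8 genes. Hk2, the hexokinase that traps glucose in insulin-responsive cells, lay below the filter in both tissues, at 30.7 to 128 in fat and 34.1 to 80.1 in hypothalamus. Adm, the vasodilator peptide adrenomedullin, passed in fat only. Pgk1, phosphoglycerate kinase, was measured by a pair of probe sets that passed (the brighter stands for the gene, and the dimmer may also detect related sequences by its name), and by a further one below the filter. Vegfa had 1 probe set that passed and another below the filter in both tissues.

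Whether the members had different levels in the 2 tissues was read in the Pair-Fed group. Angptl4, Vegfa and Adm were higher in fat, and Slc2a1 and both Pgk1 probe sets were higher in hypothalamus, so that 6 of the 10 member probe sets tested were called, 3 in each direction. Over all 21719 probe sets that passed in either tissue 39.5% were called, so a call was common. The median difference, fat minus hypothalamus, was 0.74 over the 10 members and 0.27 over all.

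**Figure D1:**
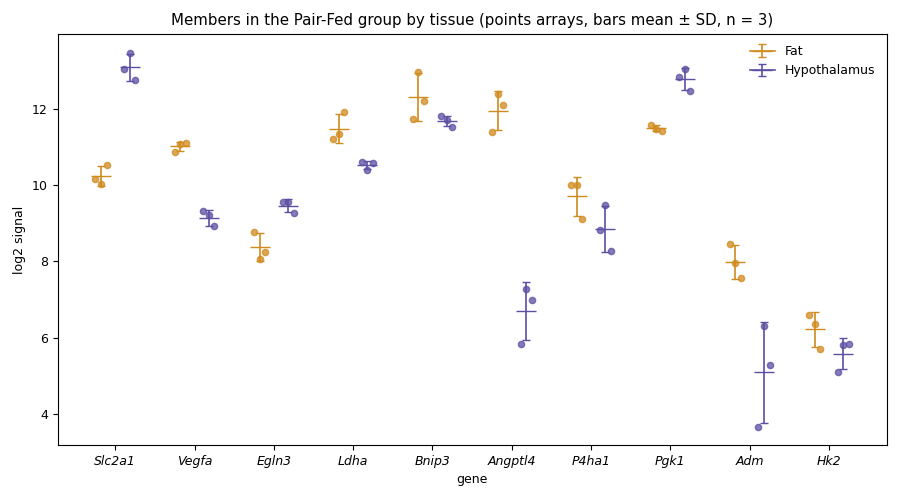
Log2 signal of each member in the 3 Pair-Fed fat arrays and the 3 Pair-Fed hypothalamus arrays, with points for arrays and bars for mean ± SD (n = 3); Pgk1 is shown by the probe set that stands for it. Angptl4 has the widest gap between tissues, 11.96 in fat against 6.69 in hypothalamus, and Slc2a1 lies the other way, 10.24 against 13.10; positions of different genes are not comparable, because probe sets differ in brightness.

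Angptl4, a secreted inhibitor of lipoprotein lipase, had signals of 2702, 5360 and 4383 on the Pair-Fed fat arrays and 57.0, 155 and 126 on the Pair-Fed hypothalamus arrays. The fat arrays were all far above the hypothalamus arrays, by 5.27 ± 0.51 in log2 signal or 38.5-fold (limma, adjusted p = 1.90e-07). Vegfa, the vascular endothelial growth factor, had 1894, 2174 and 2221 in fat and 640, 593 and 485 in hypothalamus. Its arrays did not overlap between tissues either, with a difference of 1.88 ± 0.26 or 3.68-fold (limma, adjusted p = 1.50e-05). Adm had 350, 250 and 190 in fat and 12.7, 79.0 and 39.2 in hypothalamus, where its mean lay under the filter. It was therefore tested only because of its level in fat. With hypothalamus arrays under the filter's 52.7 set to that value, the fold was at least 4.23, against 7.51 as measured (difference 2.91 ± 1.10, limma, adjusted p = 0.0418).

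Slc2a1, the transporter GLUT1, was the reverse. Its signals were 1158, 1041 and 1473 on the Pair-Fed fat arrays and 8481, 11480 and 6956 on the Pair-Fed hypothalamus arrays. Every hypothalamus array exceeded every fat array, and the level was 7.25-fold higher in hypothalamus (difference -2.86 ± 0.43, limma, adjusted p = 2.99e-05). Pgk1 had 3075, 2848 and 2772 in fat and 7309, 8508 and 5741 in hypothalamus with the brighter probe set, a level 2.45-fold higher in hypothalamus (difference -1.29 ± 0.49, limma, adjusted p = 0.0413). With the dimmer probe set it was 3.50-fold higher (difference -1.81 ± 0.53, limma, adjusted p = 0.0109), a call that was lost without the second fat array (-1.56, adjusted p = 0.0537). Pgk1 makes ATP in the later steps of glycolysis, and its probe sets went the same way.

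The remaining 4 members tested were not called between tissues. Differences, fat minus hypothalamus, were 0.85 ± 0.36 for P4ha1, 0.95 ± 0.48 for Ldha, 0.63 ± 0.32 for Bnip3 and -1.10 ± 0.58 for Egln3 (limma, adjusted p = 0.0653 to 0.137). Slc2a1, Vegfa and Angptl4 were called in all 13 settings tried. The call of the brighter Pgk1 probe set was lost without any 1 of the 6 Pair-Fed arrays, at adjusted p = 0.0557 to 0.117, and with the replicate number as a block, at 0.0528. The Adm call was lost without each of these arrays except the second hypothalamus array, at adjusted p = 0.0671 to 0.171, and after quantile normalization (0.102) or median centring (0.0728). P4ha1 was called without the third fat array (1.15, adjusted p = 0.0271) or the second hypothalamus array (1.16, adjusted p = 0.025), with the replicate number as a block (adjusted p = 0.0353) and with array weights (0.0492). Array weights also gave calls for Egln3 (adjusted p = 0.00898), Ldha (0.0054) and Bnip3 (0.0339). A fit of the Pair-Fed arrays alone gave calls for Egln3 (0.00629) and Ldha (0.00435), and Bnip3 was called without the first fat array (0.92, adjusted p = 0.0434).

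In fat, the question was how the members differed between pair-fed animals, animals losing weight after bypass and animals regaining it. No member was called in any of the 3 comparisons, and with all arrays neither was any other probe set (0% of 18625 in each). That background depended on single arrays. Without the third RYGB-Fail array, which stood apart, 1116 probe sets were called between RYGB-Success and RYGB-Fail and 42 between RYGB-Fail and Pair-Fed, with no member among them. With array weights 39, 35 and 26 probe sets were called in the order RYGB-Success against Pair-Fed, RYGB-Fail against Pair-Fed and RYGB-Success against RYGB-Fail, and without the first RYGB-Success array 22 and 13 in the first and last of these, again with no member. Slc2a1 had the widest separation, with its highest signals in RYGB-Success, and Angptl4 was lowest in RYGB-Fail. The comparisons against Pair-Fed share the Pair-Fed arrays, and each pair of comparisons shares a group.

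**Figure D2:**
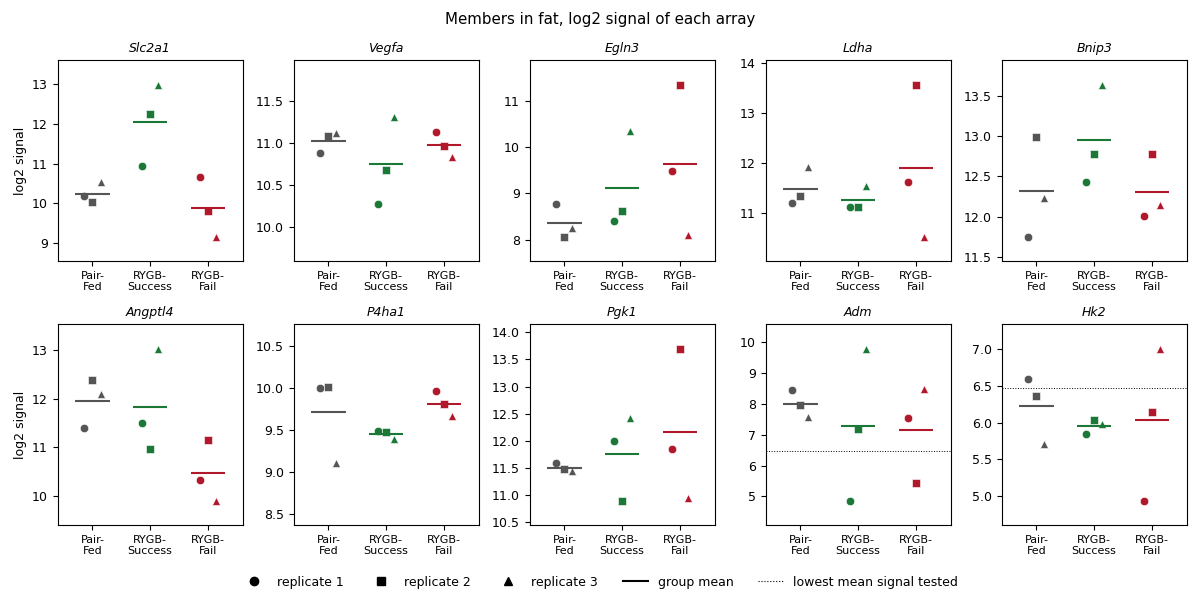
Log2 signal of each member on the 9 fat arrays, by treatment group, with 1 marker shape per replicate number, lines for group means (n = 3) and a dotted line at the lowest mean signal tested. The 3 RYGB-Success arrays of Slc2a1 lie above the other 6, and single arrays set the spread elsewhere, such as the second RYGB-Fail array for Egln3, Ldha and Pgk1.

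Slc2a1 had signals of 1158, 1041 and 1473 in Pair-Fed fat, 1955, 4890 and 8163 in RYGB-Success and 1631, 891 and 568 in RYGB-Fail. All 3 RYGB-Success arrays were above all 6 others, though the lowest of them was close to the highest RYGB-Fail array. The mean log2 signal was 10.24 ± 0.26 in Pair-Fed, 12.06 ± 1.04 in RYGB-Success and 9.87 ± 0.76 in RYGB-Fail (SD, n = 3). RYGB-Success exceeded Pair-Fed by 1.82 ± 0.51, or 3.53-fold (limma, unadjusted p = 0.00395, adjusted p = 0.662), and RYGB-Fail by 2.19 ± 0.51, or 4.56-fold (unadjusted p = 0.00108, adjusted p = 0.649). The difference of RYGB-Fail from Pair-Fed was -0.37 ± 0.51. Over the alternatives tried the first of these ran from 1.35, without the third RYGB-Success array, to 2.38, without the first, and the second from 1.39 with array weights to 2.99 after adding the muscle marker level to the model. The lowest adjusted p among them was 0.0605, for RYGB-Success against RYGB-Fail without the third RYGB-Fail array, where the difference was 1.83 and 1116 of all probe sets were called.

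Markers of other cell types moved across the same fat arrays. Of the skin and mammary epithelium markers, 12 of 12 were on the array. Their mean log2 signal was 5.3, 5.6 and 5.2 on the Pair-Fed arrays, 5.9, 9.2 and 8.7 on those of RYGB-Success and 4.3, 5.3 and 7.3 on those of RYGB-Fail. The 2 RYGB-Success arrays with high epithelium levels were also those with the highest Slc2a1. The third RYGB-Fail array, next in epithelium level at 7.3, had the lowest Slc2a1 signal in fat, 568. Krt5, a keratin of basal epithelium, ran from 35.2 to 1094 over the fat arrays, and Krt14 from 1.78 to 201. Lymphocyte markers (8 of 10 on the array) were at 7.2, 7.8 and 10.7 on the RYGB-Success arrays and 6.6 to 7.8 in the other groups, and blood cell markers (5 of 7) at 8.6, 8.9 and 10.5 on those arrays, 7.2, 7.5 and 6.9 in the Pair-Fed group and 7.9, 7.3 and 6.4 in RYGB-Fail. With the epithelium level as a covariate the Slc2a1 differences were 1.60 from Pair-Fed and 1.99 from RYGB-Fail (limma, adjusted p = 1 for each). The part of lymphocytes and blood cells in the Slc2a1 signal was not tested.

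Angptl4 had signals of 2702, 5360 and 4383 in Pair-Fed fat, 2899, 1998 and 8408 in RYGB-Success and 1283, 2278 and 951 in RYGB-Fail. The RYGB-Fail arrays all lay below the Pair-Fed arrays, and RYGB-Success overlapped both groups, with the third of the RYGB-Success arrays the highest of the 9. RYGB-Fail differed from Pair-Fed by -1.50 ± 0.51, a level 2.84-fold lower (limma, unadjusted p = 0.0126, adjusted p = 1). RYGB-Success differed from Pair-Fed by -0.13 ± 0.51 and from RYGB-Fail by 1.38 ± 0.51 (adjusted p = 0.985 and 0.827). After the muscle marker level was added to the model the RYGB-Fail difference was -3.06 ± 0.84 (limma, adjusted p = 0.109). The muscle levels of RYGB-Fail did not overlap those of the other groups, so level and group cannot be told apart there. Without the third RYGB-Success array the difference of RYGB-Success from RYGB-Fail was 0.78.

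The glycolytic members and Egln3 had their highest fat signals on single arrays. Ldha, the lactate dehydrogenase subunit that favours lactate production, had 2364, 2583 and 3864 in Pair-Fed, 2239, 2219 and 2970 in RYGB-Success and 3160, 12151 and 1476 in RYGB-Fail. Egln3, the prolyl hydroxylase PHD3, had 439, 267 and 306 in Pair-Fed, 338, 392 and 1303 in RYGB-Success and 711, 2608 and 274 in RYGB-Fail. The brighter Pgk1 probe set had 3075, 2848 and 2772 in Pair-Fed, 4092, 1890 and 5440 in RYGB-Success and 3680, 13308 and 1966 in RYGB-Fail. In all 3 genes the second RYGB-Fail array was the highest of the 9 and the third was the lowest of the RYGB-Fail group, so that group had the widest range.

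Differences of RYGB-Fail from Pair-Fed were 1.28 ± 0.73 for Egln3, 0.42 ± 0.59 for Ldha, and 0.66 ± 0.59 and 0.96 ± 0.65 for the Pgk1 probe sets (limma, adjusted p = 1 for each). Skeletal muscle markers, 14 of 15 on the array, were also highest on the second RYGB-Fail array: their mean log2 signal was 12.1, 14.2 and 8.7 in RYGB-Fail, 5.9, 6.8 and 5.8 in Pair-Fed and 7.0, 7.4 and 8.1 in RYGB-Success. The third RYGB-Fail array differed, with muscle markers above the Pair-Fed and RYGB-Success arrays but the lowest Ldha signal in fat, 1476. Ckm, muscle creatine kinase, ran from 4.22 to 23943 over the fat arrays. After the muscle level was added to the model the Egln3 difference turned to -1.97 ± 0.89, that of Ldha to -2.32 ± 0.66 and that of the brighter Pgk1 probe set to -1.91 ± 0.74, none of them called. All RYGB-Fail arrays had higher muscle levels than every other fat array. In comparisons with that group, muscle level and group therefore cannot be told apart. Without the second RYGB-Fail array the Egln3 difference was 0.42, and without the third it was 2.05. With the dimmer Pgk1 probe set the RYGB-Success arrays, at 2393, 2429 and 4627, all lay above the Pair-Fed arrays, at 1934, 1108 and 1798, by 0.93 ± 0.65 (adjusted p = 0.975), where the brighter had 0.26 ± 0.59 and overlapping arrays.

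**Figure D3:**
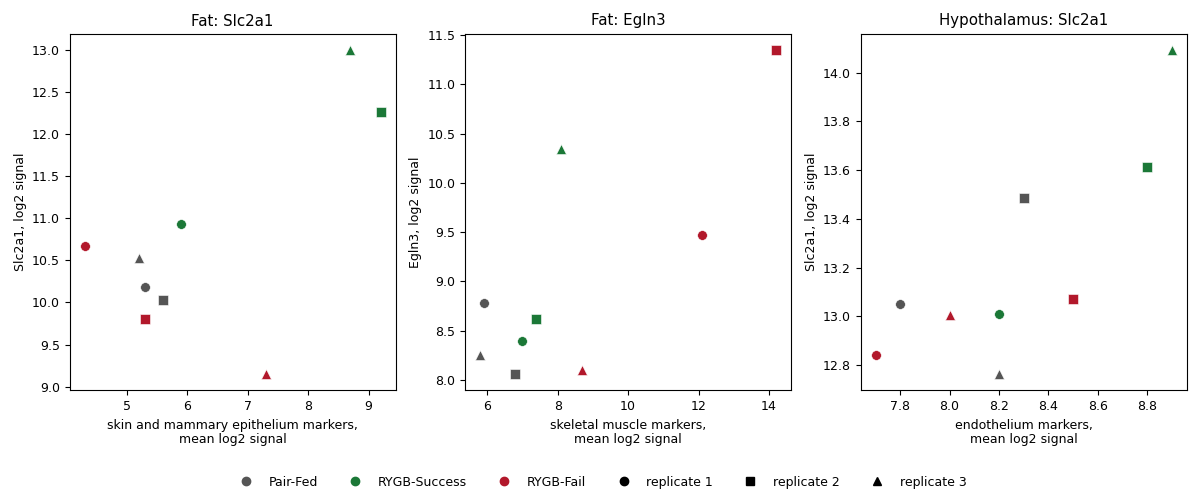
Log2 signal of a member against the mean log2 signal of a marker list on the 9 arrays of a tissue, coloured by group with 1 shape per replicate number: Slc2a1 against epithelium markers in fat, Egln3 against muscle markers in fat, and Slc2a1 against endothelium markers in hypothalamus. The RYGB-Success fat arrays other than the first are high on both axes of the left panel, the second RYGB-Fail array on both axes of the middle panel, and the RYGB-Success arrays other than the first on both axes of the right panel.

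The members of vessel growth, mitochondrial turnover and collagen synthesis were not called in fat either. Vegfa had 1894, 2174 and 2221 in Pair-Fed, 1235, 1644 and 2538 in RYGB-Success and 2246, 1998 and 1820 in RYGB-Fail, and P4ha1, the catalytic subunit of collagen prolyl 4-hydroxylase, had 1028, 1038 and 551, then 717, 713 and 672, then 1001, 900 and 810 in the same order. These genes had the smallest spread of the members in fat, a pooled SD of 0.32 each, where the median probe set had 0.61. The RYGB-Success arrays of P4ha1 lay below all RYGB-Fail arrays, by -0.36 ± 0.34 (limma, adjusted p = 0.905). Bnip3, a mitochondrial protein that promotes mitophagy, had differences of 0.63 ± 0.39 for RYGB-Success and -0.01 ± 0.39 for RYGB-Fail from Pair-Fed. Adm was the most variable member, with a pooled SD of 1.71: its RYGB-Success arrays were at 29.0, 146 and 889 and its RYGB-Fail arrays at 185, 42.9 and 362, around the 190 to 350 of Pair-Fed.

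Over the 10 member probe sets in fat, 5 were higher and 5 lower in RYGB-Success than in Pair-Fed (median 0.07, against 0.11 over all probe sets), and 2 had groups of arrays that did not overlap, where 18.6% of all probe sets had. RYGB-Fail against Pair-Fed gave 5 higher and 5 lower (median 0.05, against -0.09), with 1 non-overlapping, against 6.90%. RYGB-Success against RYGB-Fail gave 4 higher and 6 lower (median -0.12, against 0.17), with 2 non-overlapping, against 7.87%. At an unadjusted p under 0.05 there were 905, 501 and 1060 probe sets in these comparisons, of which 1, 1 and 2 were members. The members thus had no common direction in fat. By array, the third RYGB-Success array was the highest of the 9 for 5 of the 10 members, where it was for 14.6% of all probe sets, and the second RYGB-Fail array for 4, against 13.5%.

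**Figure D4:**
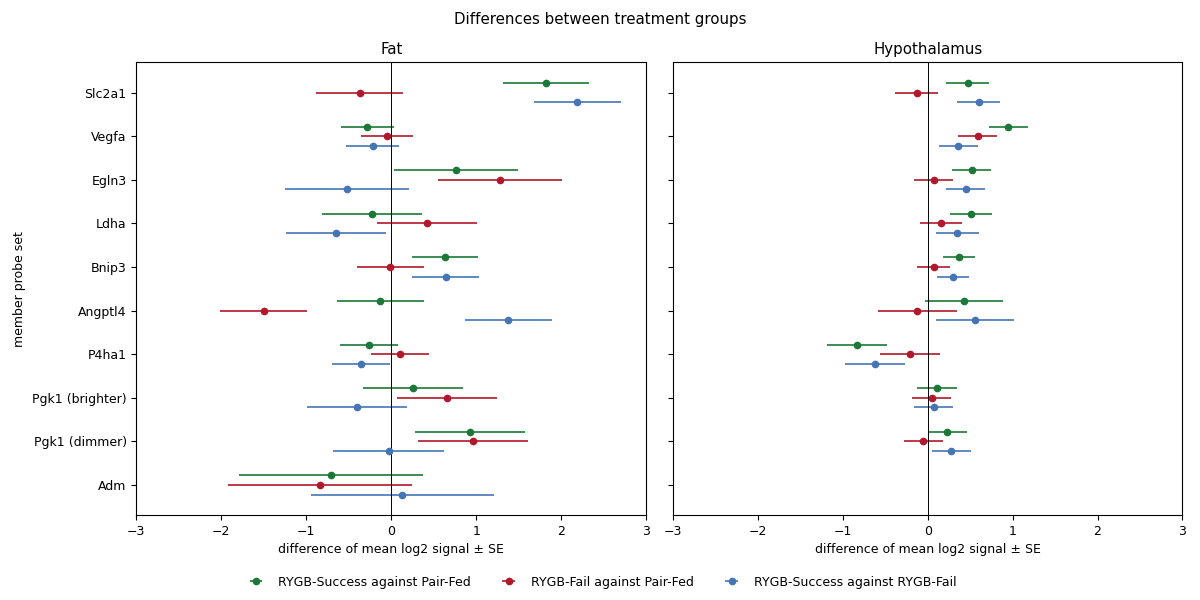
Differences of mean log2 signal ± SE (limma, 3 arrays a group) for the member probe sets tested in fat (10) and hypothalamus (9), for the 3 treatment comparisons; Pgk1 has a row for its brighter and for its dimmer probe set. In fat Slc2a1 and Angptl4 lie farthest from 0, and in hypothalamus 8 of 9 values for RYGB-Success against Pair-Fed are above 0, with Vegfa at 0.95 and P4ha1 at -0.83.

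In hypothalamus, of 9 member probe sets 8 were higher and 1 lower in RYGB-Success than in Pair-Fed, with a median difference of 0.43 where all probe sets had 0.05. The members' median was 0.21 without the third RYGB-Success array, 0.20 after median centring (where all probe sets had -0.19), 0.15 after adding the endothelium marker level to the model and 0.13 with array weights. It was 0.59 without the first RYGB-Success array, 0.45 without the second and 0.42 after adding the astrocyte marker level to the model. No member was called, where 0.0107% of all probe sets (2 of 18625) were. Without the second RYGB-Success array 65 probe sets were called, with no member among them. The arrays of 4 members, Vegfa, Egln3, Ldha and Bnip3, did not overlap and were higher in RYGB-Success, where 18% of all probe sets (3361 of 18625) did not overlap. The lowest adjusted p was 0.215 (limma), for Vegfa. At an unadjusted p under 0.05 there were 2447 of the 18625 probe sets in this comparison, of which 3 were members.

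**Figure D5:**
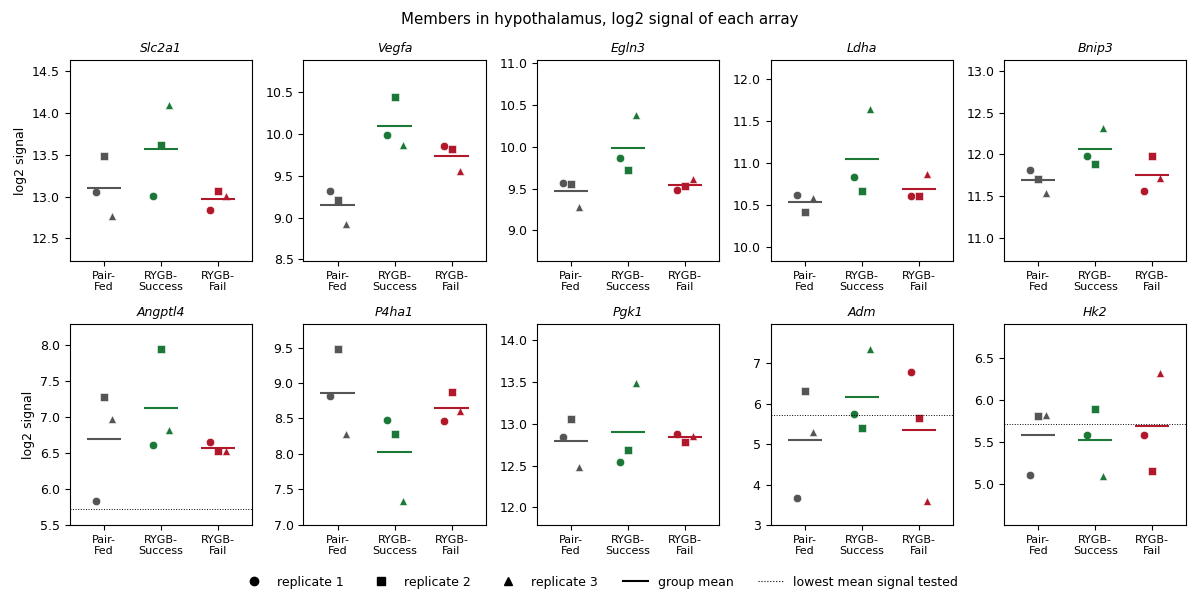
Log2 signal of each member on the 9 hypothalamus arrays, by treatment group, with 1 marker shape per replicate number, lines for group means (n = 3) and a dotted line at the lowest mean signal tested. All 6 arrays from operated animals lie above the 3 Pair-Fed arrays for Vegfa, and the third RYGB-Success array is the highest for Slc2a1, Egln3, Ldha, Bnip3 and Pgk1 and the lowest for P4ha1.

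Vegfa had signals of 640, 593 and 485 in Pair-Fed hypothalamus, 1018, 1387 and 937 in RYGB-Success and 924, 905 and 751 in RYGB-Fail. The Pair-Fed arrays were the lowest of the 9, and the RYGB-Success arrays were all above the RYGB-Fail arrays, by a narrow margin. Mean log2 signal was 9.15 ± 0.21, 10.10 ± 0.30 and 9.74 ± 0.16 in the same order (SD, n = 3). RYGB-Success exceeded Pair-Fed by 0.95 ± 0.23, or 1.93-fold (limma, unadjusted p = 0.00117, adjusted p = 0.215), and RYGB-Fail exceeded it by 0.59 ± 0.23, or 1.51-fold (unadjusted p = 0.0241, adjusted p = 1). The difference of RYGB-Success from RYGB-Fail was 0.36 ± 0.23 (adjusted p = 0.784). The first of these ran from 0.71 after median centring (where all probe sets had a median of -0.19) to 1.06 without the third RYGB-Success array, with a lowest adjusted p of 0.0801 with array weights.

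Ldha had 1571, 1364 and 1529 in Pair-Fed hypothalamus, 1824, 1621 and 3197 in RYGB-Success and 1566, 1555 and 1867 in RYGB-Fail. Egln3 had 761, 753 and 622, then 933, 846 and 1338, then 715, 738 and 785, and Bnip3 had 3604, 3344 and 2973, then 4035, 3796 and 5087, then 3033, 4052 and 3384. In each of these the third RYGB-Success array was the highest of the 9, and the other 2 of its group lay just above the Pair-Fed arrays. RYGB-Success exceeded Pair-Fed by 0.51 ± 0.25 for Ldha, 0.52 ± 0.23 for Egln3 and 0.37 ± 0.19 for Bnip3 (limma, adjusted p = 0.402, 0.368 and 0.428). Without the third RYGB-Success array these differences were 0.21, 0.33 and 0.25, and after median centring 0.27, 0.29 and 0.14. Median centring also moved the median of all probe sets, from 0.05 to -0.19.

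Slc2a1 had 8481, 11480 and 6956 in Pair-Fed hypothalamus, 8244, 12514 and 17474 in RYGB-Success and 7342, 8606 and 8228 in RYGB-Fail. The groups overlapped, and the third RYGB-Success array was again the highest. RYGB-Success exceeded Pair-Fed by 0.47 ± 0.25 and RYGB-Fail by 0.60 ± 0.25 (limma, adjusted p = 0.439 and 0.784). Endothelium markers, 8 of 10 on the array, had mean log2 signals of 8.2, 8.8 and 8.9 in RYGB-Success, 7.8, 8.3 and 8.2 in Pair-Fed and 7.7, 8.5 and 8.0 in RYGB-Fail. With their level as a covariate the Slc2a1 difference from Pair-Fed was 0.08 and that from RYGB-Fail 0.20, while the Vegfa difference from Pair-Fed was 0.95 as before. Without the third RYGB-Success array the Slc2a1 differences were 0.21 and 0.34. Blood cell markers (5 of 7) were at 8.3, 9.3 and 9.6 in RYGB-Success, 6.8, 5.7 and 5.9 in Pair-Fed and 5.8, 6.8 and 7.2 in RYGB-Fail, and their part in the members' signals was not tested.

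P4ha1 was the member that lay lower in RYGB-Success hypothalamus. Its signals were 452, 716 and 310 in Pair-Fed, 358, 310 and 162 in RYGB-Success and 353, 468 and 391 in RYGB-Fail. The groups overlapped, and the difference of RYGB-Success from Pair-Fed was -0.83 ± 0.35 (limma, unadjusted p = 0.0333, adjusted p = 0.35), or -0.48 without the third RYGB-Success array and -0.51 without the second Pair-Fed array. Pgk1 differed by 0.11 ± 0.23 with the brighter probe set and 0.23 ± 0.23 with the dimmer. Angptl4, near the filter in this tissue, had 57.0, 155 and 126 in Pair-Fed, 97.9, 248 and 113 in RYGB-Success and 101, 92.5 and 92.1 in RYGB-Fail, with a difference of 0.43 ± 0.46.

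RYGB-Fail against Pair-Fed in hypothalamus gave 5 members higher and 4 lower (median 0.05, against 0.03 over all probe sets), and 0 called, as for all probe sets (0% of 18625, with 445 at an unadjusted p under 0.05). Vegfa was the 1 member whose arrays did not overlap, where 9.18% of all probe sets did not. RYGB-Success against RYGB-Fail gave 8 higher and 1 lower (median 0.35, against 0.01), with 0 called, where 0.00537% of all were. Vegfa and Egln3 were the 2 members whose arrays did not overlap there, against 10.5% of all. The third RYGB-Success array was the highest of the 9 for 6 of 9 members, where it was for 22.8% of all probe sets, and the third Pair-Fed array was the lowest for 5, against 12.4%.

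An interaction term, fitted over the 15531 probe sets passing in both tissues, asked whether a treatment difference was unequal between fat and hypothalamus. No member was called in any of the 3 tests, nor was any other probe set (0% in each, with 1283, 466 and 1002 at an unadjusted p under 0.05 in the order of the comparisons above). For RYGB-Success against Pair-Fed the Vegfa difference was lower in fat than in hypothalamus by -1.22 ± 0.38 (limma, unadjusted p = 0.00437, adjusted p = 0.413), with -0.28 in fat and 0.95 in hypothalamus. The Slc2a1 difference was greater in fat, by 1.35 ± 0.60 against Pair-Fed (adjusted p = 0.564) and by 1.59 ± 0.60 against RYGB-Fail (adjusted p = 0.732). For Angptl4 the difference of RYGB-Fail from Pair-Fed was lower in fat by -1.38 ± 0.71 (adjusted p = 1).

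The other genes of these pathways were taken from 6 lists. With all arrays no listed gene was called in any of the 6 treatment comparisons. Of the HIF machinery, 15 of 16 genes were on the array, and the lowest unadjusted p in fat belonged to Epas1, the HIF-2 alpha subunit prominent in endothelium, and Egln1, the main oxygen-sensing hydroxylase. Epas1 had 3067, 2393 and 3147 in RYGB-Success fat and 1637, 1967 and 1734 in RYGB-Fail, a difference of 0.68 ± 0.28 (limma, adjusted p = 0.839). In hypothalamus Elob, a subunit of the ligase complex that marks HIF alpha, had 6713, 4333 and 5931 in RYGB-Success, against 1166, 3186 and 3279 in Pair-Fed, a difference of 1.27 ± 0.33 (adjusted p = 0.215), and the coactivator Ep300 had -0.49 ± 0.21. Egln1 had a difference of 0.89 ± 0.47 for RYGB-Fail against Pair-Fed in fat.

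Among 26 other hypoxia targets on the array, of 27 listed, the lowest p in fat belonged to Vldlr, a lipoprotein receptor, and Ndrg1, a stress-responsive protein. Vldlr had 509, 585 and 498 in RYGB-Success fat and 1245, 2527 and 929 in RYGB-Fail (difference -1.43 ± 0.38), and Ndrg1 had 5539, 12272 and 7977 against 4064, 2185 and 4519 (1.25 ± 0.36). Their arrays did not overlap and they lay in opposite directions (limma, adjusted p = 0.711 and 0.762). In hypothalamus Tfrc, the transferrin receptor, had 5595, 4537 and 9290 in RYGB-Success, against 3608, 2787 and 3135 in Pair-Fed (0.97 ± 0.24, adjusted p = 0.215), and Lox, the collagen crosslinking enzyme, had a difference of 1.15 ± 0.39. The median difference of this list for RYGB-Success against Pair-Fed was 0.29 in fat and 0.14 in hypothalamus, where all probe sets had 0.11 and 0.05.

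Of 18 glycolytic enzymes 14 were on the array. In fat the lowest p belonged to a pair of muscle isoforms: Pgam2 had 1619, 15004 and 249 in RYGB-Fail and 10.9, 5.71 and 152 in RYGB-Success, and Eno3 had 4581, 24300 and 485 in RYGB-Fail and 210, 156 and 175 in Pair-Fed. These follow the same RYGB-Fail arrays as the muscle markers given above (Eno3 difference 4.40 ± 1.02, limma, adjusted p = 0.975). In hypothalamus Aldoc, the brain aldolase of astrocytes, had 8488, 10476 and 14328 in RYGB-Success, against 7215, 7188 and 7082 in Pair-Fed (0.60 ± 0.19, adjusted p = 0.255). Eno1 had 0.52 ± 0.20, and 11 of the 13 enzymes tested there were higher in RYGB-Success, with a median of 0.15 against 0.05 over all probe sets.

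Glucose transporters other than Slc2a1, with their regulators, numbered 12 of 14 on the array. Slc2a8, an intracellular transporter, had 652, 388 and 438 in RYGB-Success hypothalamus and 116, 331 and 165 in Pair-Fed (1.37 ± 0.35, limma, adjusted p = 0.215). Slc2a13, a proton myo-inositol transporter, had differences of -0.97 ± 0.40 in fat and -0.35 ± 0.24 in hypothalamus for the same groups. Txnip, which restrains glucose uptake, had 0.78 ± 0.32 for RYGB-Success against RYGB-Fail in fat. Slc2a4, the insulin-responsive transporter of fat and muscle, had 869, 696 and 1543 in Pair-Fed fat, 1181, 719 and 222 in RYGB-Success and 1659, 3437 and 484 in RYGB-Fail, so its array order in fat was not that of Slc2a1.

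Ligands, receptors and enzymes that work with Vegfa, Adm and Angptl4 numbered 17 of 18 on the array. Vegfb, a related growth factor, had 794, 694 and 278 in RYGB-Success fat and 1189, 2620 and 1285 in Pair-Fed (-1.57 ± 0.52, limma, adjusted p = 0.77), and 828, 950 and 889 against 255, 589 and 539 in hypothalamus (1.04 ± 0.30, adjusted p = 0.229). Its arrays did not overlap in either tissue, with opposite directions whose difference is not given here. Ramp2, a subunit of the adrenomedullin receptor, had -1.16 ± 0.40 in fat, and Nrp1, a Vegfa coreceptor, -0.98 ± 0.36 in hypothalamus. Of the PPAR and fasting targets, 13 of 15 on the array, Plin2, a lipid droplet protein, had -0.65 ± 0.24 for RYGB-Fail against Pair-Fed in fat (adjusted p = 1), the comparison in which Angptl4 had -1.50. Of the 11 targets tested there, 6 were higher and 5 lower, with a median of 0.04 against -0.09 over all probe sets. Cpt1b, the muscle form of the carnitine transferase, had -2.02 ± 0.61 for RYGB-Success against RYGB-Fail. Ppard and Acaa2 had 0.85 ± 0.22 and 0.93 ± 0.29 for RYGB-Success against Pair-Fed in hypothalamus (adjusted p = 0.215 and 0.245).

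Between tissues the same lists held many calls, beside the background of 39.5%. Of 14 glycolytic enzymes tested 10 were called lower in fat and 0 called higher, with 12 lower and 2 higher by direction alone. The calls were led by Aldoc (difference -6.22 ± 0.55, limma, adjusted p = 6.20e-08), Eno2, the neuronal enolase (-2.97 ± 0.28), Pfkp (-2.26 ± 0.26) and Pgam1 (-1.11 ± 0.22). Their direction is that of Pgk1. Of 13 partners of Vegfa, Adm and Angptl4 tested 11 were called higher in fat and 0 called lower, with 12 higher and 1 lower by direction. Among those called were Lpl, the lipoprotein lipase that Angptl4 inhibits (4.44 ± 0.37, limma, adjusted p = 3.74e-08), Kdr, the main Vegfa receptor (2.49 ± 0.25), Ramp2 (2.97 ± 0.35) and Nrp1 (2.49 ± 0.33). All 13 passed the filter in fat but only 9 in hypothalamus. Some partners were therefore tested only because of their level in fat, which favours that direction. PPAR and fasting targets had 6 of 11 called higher in fat and 0 called lower, with 10 higher and 1 lower by direction. Those called included Plin2 (2.38 ± 0.34) and Pparg, the adipocyte nuclear receptor. Here too all 11 passed the filter in fat but only 9 in hypothalamus. Pparg lay under the filter in Pair-Fed hypothalamus, at 31.3, 2.72 and 33.1, and with arrays set to the filter's 52.7 was at least 27.1-fold higher in fat.

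Transporters and regulators had 4 called higher in fat and 2 called lower of 10 in the same comparison, with 7 higher and 3 lower by direction. Txnip was higher in fat (2.82 ± 0.28) and Slc2a4 also higher (limma, adjusted p = 4.90e-04), opposite to Slc2a1. Slc2a4 lay under the filter in Pair-Fed hypothalamus, at 33.4, 30.5 and 16.9, and with these set to 52.7 was at least 18.5-fold higher in fat. HIF machinery had 2 called higher in fat and 2 called lower of 13, with 10 higher and 3 lower by direction. Of those called, Arnt2, the neural partner of HIF alpha, was higher in hypothalamus and Epas1 higher in fat (0.95 ± 0.24). Arnt2 lay at or under the filter in Pair-Fed fat, at 89.8, 79.2 and 86.0, and with arrays under 88.9 set to that value was at least 13.9-fold higher in hypothalamus. Other hypoxia targets had 7 called higher in fat and 3 called lower of 21, with 13 higher and 8 lower by direction. Among those called were Lox (5.26 ± 0.48), Pfkfb3 (2.25 ± 0.35) and Cxcr4 (2.32 ± 0.37), all higher in fat.

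The named genes whose arrays were most like those of Slc2a1 and Angptl4 were found by the root mean square difference of log2 signal over the 9 arrays of a tissue, each gene being first centred on its own mean. For Slc2a1 in fat, whose own root mean square was 1.14, they were Slc7a1, a cationic amino acid transporter (0.43), Cmahp (0.43) and Pde4b, a cyclic AMP phosphodiesterase (0.47). For Angptl4 in fat, at 0.93, they were Thrb, a thyroid hormone receptor (0.33), Ctnnbl1 (0.40) and Map4k4 (0.43). In hypothalamus, where Slc2a1 had 0.41 and Angptl4 0.55, they were Clic4 (0.13), Pik3ip1 (0.14) and Rock2 (0.14) for Slc2a1 and Itpkc (0.19), Naxd (0.22) and Mapk8 (0.23) for Angptl4. These distances describe 9 arrays and carry no test.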

How the data were processed

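Per the labels' protocols, RNA was isolated on Qiagen RNeasy columns, then amplified and labelled with biotin using a NuGEN WT-Ovation kit. The authors deposited a linear intensity (signal) for every probe set of every array. The submitters' processing notes name MAS5 and GCOS, and their versions are not given in the sources used here. This scaling equalises trimmed means and not medians, and low signals vary more than high ones once logged.

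Gene names came from the platform annotation: of 31099 probe sets, 57 were array controls, 20826 had 1 symbol, 436 several and 9780 none, and 20758 gene identifiers matched a RefSeq table. For a gene the probe set with the highest mean log2 signal in the tissue stands for it. Values were log2 of the signal with no pseudocount. The linear models came from limma 3.58.1 under R 4.3.3, with lmFit and a trended eBayes, over the 9 arrays of a tissue or all 18 for comparisons between tissues, on the upper 60% of probe sets, with Benjamini-Hochberg adjustment over all of them and a threshold of 0.05. The limma step was tested on simulated data. Groups and replicate numbers came from the sample titles. Deviations from group means of arrays with the same number correlated at -0.16 to 0.29, not above 0.1 for every pair, so the numbers were not taken to pair samples.

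The members, the 6 pathway lists and the marker lists were chosen with earlier results of these data known. The text names every member, the genes with the lowest unadjusted p of each list in a tissue (2 where none was called), up to 4 genes called between tissues, and the 3 genes most like Slc2a1 and Angptl4. Alternatives were a pseudocount of 10% of the mean signal, no filter or the upper 40%, quantile normalization, median centring, array weights, only the groups compared, the replicate block, marker levels as covariates and each array left out. Python 3.11.15, pandas 2.3.3 and matplotlib 3.10.9 made tables and figures.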

Additional observations from a re-analysis of the deposited data

How the results depend on the processing

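No member was called under any alternative in a treatment comparison or in an interaction test of treatment differences between tissues. All 150 recomputed counts of these were 0, and the lowest adjusted p of a member in a treatment comparison was 0.0605 (limma). Of 837 alternative values of member differences in the treatment comparisons, taken with the probe set that stands for each gene, 24 moved by 1 SD or more. Calls over all probe sets in fat, 0 with all arrays, reached 1116 for RYGB-Success against RYGB-Fail without the third RYGB-Fail array, and in hypothalamus went from 2 to 65 for RYGB-Success against Pair-Fed without the second RYGB-Success array. The count of members called between tissues was 6, and 10 with array weights. Leaving out each Pair-Fed array in turn it ran from 3, without the second fat array, to 6. It was 5 after quantile normalization or median centring and 8 with only the Pair-Fed arrays. Of 108 alternative tissue differences, taken with the probe set that stands for each gene, 14 of the called ones were lost, 10 others were gained and 0 reversed. The dimmer Pgk1 probe set is not among the 108, and its call was lost without the second fat array. With the replicate block the tissue count was 6 and every treatment count 0. The block exchanged the brighter Pgk1 probe set for P4ha1 among the calls. Signals near the filter limit what can be said of Hk2, Adm and hypothalamic Angptl4, and the cause of each change was not tested.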

Other observations

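Spread between arrays differed by tissue for the same genes. The pooled SD within groups ran from 0.32 (Vegfa and P4ha1) to 1.71 (Adm) over the members in fat, where the median of all probe sets was 0.61, and from 0.19 (Bnip3) to 0.61 (Angptl4) in hypothalamus, where it was 0.38. Ldha had 0.93 in fat and 0.32 in hypothalamus, and Egln3 1.15 and 0.23. Preadipocyte and fibroblast markers, 11 of 11 on the array, had mean log2 signals of 12.6, 12.1 and 12.4 in Pair-Fed fat and at most 11.1 in RYGB-Success, with RYGB-Fail between 11.0 and 12.4. Macrophage and microglia markers (12 of 12) were at 10.5, 9.8 and 9.4 in Pair-Fed fat, 9.2, 9.2 and 8.7 in RYGB-Success and 10.2, 9.4 and 8.7 in RYGB-Fail.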
